A study of Mus musculus with 2 samples.

Results

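The Myc and Pvt1 domain was described here by the CTCF reads that fell on mouse chromosome 15 from 60.8 to 63.5 Mb (genome build mm8), a gene-poor window of 2.7 Mb. Members were chosen by position alone: all reads of both libraries in the window, counted in 1-kb bins after each 5′ end had been moved 102 bp towards its 3′ end. The window held 2215 of the 2011495 bins of the assembled chromosomes with a read in either library. It held 1829 of the 2371134 reads from chromatin immunoprecipitation (ChIP) of CTCF and 4468 of the 4691104 reads of whole-cell extract, the sonicated chromatin taken without immunoprecipitation. The member rule places Myc near 61.8 Mb, followed by Pvt1, and sets an inner part from 61.7 to 62.1 Mb. No annotation of mm8 was used here, so regions are given by their positions and not as upstream of, within or beyond a gene. In the RefSeq gene table for GRCm38.p6, used here for gene order alone, Pvt1 follows Myc directly. The nearest protein-coding genes there are A1bg and Lratd2 on one side of Myc and Gsdmc on the other.

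Both libraries came from V6.5 cells, a male mouse embryonic stem cell line of genotype 129SvJaexC57BL/6, at passages 10 to 15. The cells were grown on irradiated feeder fibroblasts and then passaged on gelatin to deplete the feeders. The ChIP group had 1 library and the extract group had 1 library sequenced in 2 lanes, so no difference below has a replicate check. All intervals are 95% exact intervals and cover counting error only. Where the extract had no read in a region, a floor of 3 reads stood in for its count. A fold on this floor takes the ChIP count as exact and is not a limit of an interval. It cannot be ranked against a fold from counted extract reads, since these can be fewer than the floor. Depth was 0.901 ChIP reads and 1.78 extract reads per kb over the assembled chromosomes, and each position and strand occurred at most 1 time in each library.

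CTCF is a zinc-finger protein that binds an extended DNA motif, blocks contacts between enhancers and promoters, and halts loop-extruding cohesin so that chromatin loops end at its sites. It was originally described as a protein binding the 5′ flank of the chicken c-myc gene. Myc encodes a transcription factor that drives growth and proliferation and takes part in the self-renewal of mouse embryonic stem cells. Pvt1 is a long non-coding RNA gene named for the variant translocations of plasmacytomas that break within it. In many cell types distant enhancers on both sides of Myc act on its promoter, and CTCF sites near the promoter anchor contacts in this domain.

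CTCF reads gathered at few places in the window. Of its 2215 bins with a read, 7 (0.316%) were enriched in the ChIP library, against 1.42% of all 2011495 bins tested and 1.54% of the bins on the rest of chromosome 15. A bin was called enriched when an exact one-sided Poisson test over all bins gave a Benjamini-Hochberg adjusted p under 0.001 and the ChIP count was at least 5 times the expected count. For the expected count, the extract reads of the bin and of the surrounding 5 and 10 kb were scaled by library totals, and the largest of these values and the genome average was taken. In sliding windows of 200 bp, called in the same way over the genome and joined within 200 bp, the domain held 10 enriched regions. They are numbered 1 to 10 along the chromosome. The share of sliding windows passing was 0.656% in the domain and 2.95% over the assembled chromosomes. These tests compare the reads of 2 libraries and not conditions. Levels are given in RPM, the reads per 1000000 reads of the library on the assembled chromosomes.

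**Figure D1:**
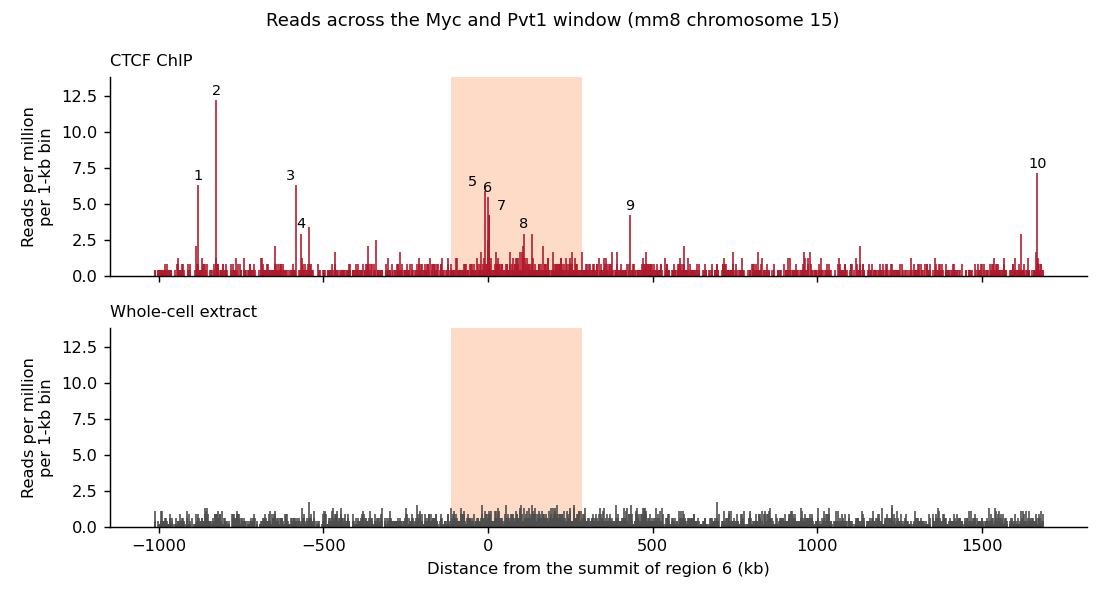
RPM in 1-kb bins of the window for the CTCF ChIP library (top) and the whole-cell extract (bottom), against the distance in kb from the summit of region 6. Shading marks the inner part and the numbers mark the enriched regions. The highest ChIP bin, at region 2, stood at 12.2 RPM, while no extract bin exceeded 1.71 RPM (8 reads).

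The inner part, which contains the place of Myc given by the rule, held regions 5, 6, 7 and 8. Regions 5, 6 and 7 lay close together near 61.8 Mb, with 10.5 kb between the summits of regions 5 and 7, and region 8 stood apart, 106 kb beyond region 7.

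Region 6, on chromosome 15 from 61812851 to 61813300, was the strongest of the inner part, with 16 ChIP reads and 0 extract reads. This was 6.75 RPM (interval 3.86 to 11) and, on the floor of 3 extract reads over the region, 10.5-fold higher in the ChIP. Its ChIP reads were 10 plus and 6 minus. Within 300 bp of its summit at 61813100, 9 plus-strand 5′ ends had a median at -98 bp and 7 minus-strand ends a median at 122 bp. The 1 kb before the region held 3 ChIP reads and the 1 kb after it 2.

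Region 5, from 61804651 to 61805050, lay 8.25 kb before region 6. It held 14 ChIP reads (5.91 RPM, interval 3.23 to 9.91), 7 on each strand, and 0 extract reads, 9.23-fold higher in the ChIP on the floor. Its flanks of 1 kb held 0 and 2 ChIP reads, so that nearly all reads of this place lay in the 400 bp of the region.

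Region 7, from 61815251 to 61815500, lay 2.27 kb beyond region 6 and was weaker. ChIP reads numbered 6 and extract reads 1 (2.53 RPM against 0.213, an 11.9-fold excess with an interval of 1.44 to 546). By strand, the ChIP reads were 5 plus and 1 minus. Its surroundings were not empty: the flanking 1 kb on each side held 5 ChIP reads.

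The bins around region 7 showed a broader rise. The 1-kb bin from 61815001 held 10 ChIP and 4 extract reads, 4.94 times the expected count (adjusted p = 0.0033, exact Poisson test), short of both limits. The next bin, from 61816001, held 10 ChIP and 5 extract reads, 3.95 times the expected count (adjusted p = 0.0179, exact Poisson test). Neither bin was called. The ChIP reads there were thus spread over 2 kb, unlike the reads of regions 5 and 6.

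Between regions 5 and 6 the reads fell to background. The 7 bins from 61805001 to 61812000 held 0 to 2 ChIP reads and 0 to 5 extract reads each. The bounds of the whole stretch, 13 kb from 61804001 to 61817000, were picked with its values in view. The ChIP library had 64 reads in it and the extract 34, a ratio of 3.72 (interval 2.42 to 5.82). It took 14.7% of the ChIP reads of the inner part and 3.72% of its extract reads.

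Region 8, from 61920851 to 61921150, was the remaining region of the inner part. Its ChIP reads numbered 8, with 4 on each strand, against 1 in the extract (3.37 RPM against 0.213, or 15.8-fold, interval 2.12 to 702). With no shift it was not called and, with 0 extract reads, was 3.95-fold higher in the ChIP on the floor. Its largest sliding window was 11.9 times the expected count, the lowest value among the 10 regions, and its adjusted p of 0.000135 (exact Poisson test) was the largest. It was not called as a 1-kb bin: the bin from 61921001 held 7 ChIP and 6 extract reads, 2.31 times the expected count.

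The rest of the window held 6 regions, 4 before the inner part and 2 after it. Region 2, from 60987101 to 60987650, was the strongest of the whole window. Here 27 ChIP reads stood against 2 of the extract (11.4 RPM against 0.427; 26.7-fold, interval 6.71 to 232), on both strands (12 plus, 15 minus). Its interval of 7.51 to 16.6 RPM overlapped those of regions 1, 3, 5, 6 and 10, so the order of these regions is not resolved at this depth.

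Region 1, from 60932001 to 60932450, lay 55.1 kb before region 2, with 14 ChIP reads against 1 of the extract (27.7-fold, interval 4.21 to 1170). Region 3, from 61230401 to 61230800, had 14 reads in the ChIP library and 0 in the extract, 9.23-fold higher in the ChIP on the floor. The fold of region 3 is lower than that of region 1 only because of this floor. Region 4, from 61245351 to 61245550, lay 14.8 kb beyond region 3. It was the weakest of the 10, with 5 ChIP reads and 0 extract reads, 3.29-fold higher on the floor. Regions 1 to 4 thus formed 2 neighbouring pairs, 243 kb apart.

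After the inner part, region 9 from 62243401 to 62243650 had 6 ChIP reads and 0 extract reads, 3.95-fold higher in the ChIP on the floor. Region 10, from 63482201 to 63482550, lay near the end of the window. With 14 ChIP reads and 0 extract reads, region 10 was 9.23-fold higher in the ChIP on the floor. Its largest sliding window was 72.1 times the expected count, the highest of the 10 regions.

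**Figure D2:**
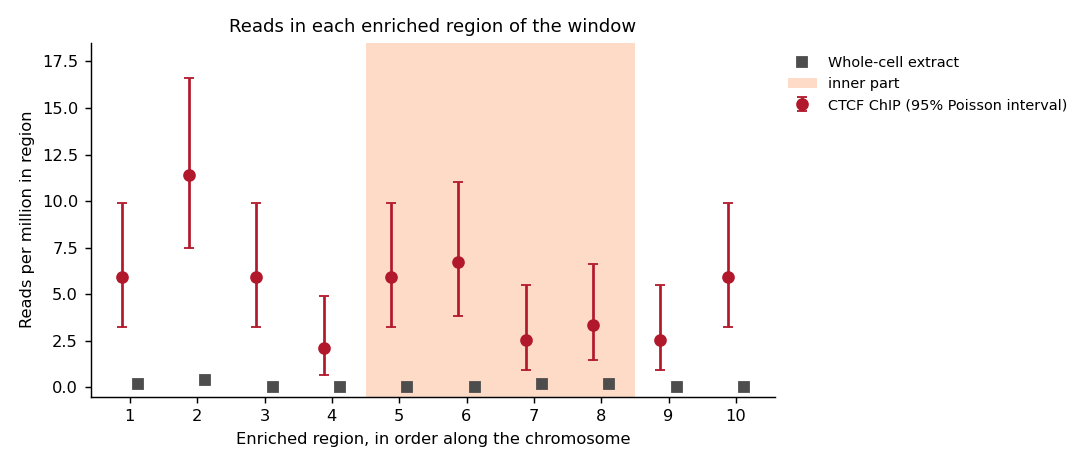
RPM in each of the 10 enriched regions, in order along the chromosome, for the CTCF ChIP library (points, with 95% Poisson intervals) and the whole-cell extract (squares). Shading marks the inner part; region 2 is highest at 11.4 RPM, region 4 lowest at 2.11, and the extract lies between 0 and 0.427.

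Together the 10 regions covered 3600 bp and held 124 ChIP reads against 5 extract reads, a 49-fold excess (interval 20.5 to 154). In 6 of the 10 regions there was no extract read. Since the regions were chosen for many ChIP reads, their counts are biased upwards. Reads with odd read numbers alone called 6 regions in the window (3.54% of all sliding windows passed with these reads). In those 6, the ChIP reads with even numbers, which had no part in the calling, numbered 44, with 4 to 16 in each, against 2 extract reads (87-fold, interval 22.7 to 741). The extract reads also set the expected counts. Even-numbered reads alone called 8 regions (3.53% of sliding windows). Regions 1, 2, 3, 5, 6 and 10 were found in both subsets, regions 4 and 9 in the even reads alone, and regions 7 and 8 in neither.

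By the median, the regions of the domain were close in strength to those elsewhere. The median region held 14 ChIP reads, and the median was 16 over the 1461 regions on the rest of chromosome 15 and 15 over all 34781 regions. Region 2 held more reads than 78.1% of all regions and region 6 more than 50.5%. Regions 1, 3, 5 and 10, with 14 reads each, exceeded 43.7%. Region 8 exceeded 17.7%, regions 7 and 9 exceeded 5.76% and region 4 exceeded 0%. Of the 10, only region 2 held at least 20 reads (10% of the window's regions). This count was reached by 40.2% of the regions on the rest of the chromosome. Fewer than 10 reads were held by 40% of the window's regions and by 26.1% of those on the rest of the chromosome. The shares in the window rest on 10 regions, and no interval was computed for them.

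Plus-strand ends lay before the summits and minus-strand ends after them, the order that sequencing of fragments around a bound point gives. Within 300 bp of the 10 summits, 69 plus-strand 5′ ends had a median position of -111 bp and 64 minus-strand ends one of 101 bp, an offset of 212 bp. Region by region the offset ran from 112 bp in region 9 to 236 bp in regions 1 and 5 (SD 45.4 bp over 10 regions). In each region the median minus-strand end came after the median plus-strand end. Some of these medians rest on very few ends: region 7 had 2 minus-strand ends, region 4 had 3 on each strand and region 9 had 3 plus-strand ends. Both region and summit had been found with reads moved by 102 bp, which favours such an order. With no shift, 8 regions were called and their offset was 159 bp. A shift of 75 bp called 10 regions, with an offset of 186 bp. Within 300 bp of the summits found with 102 bp, the extract had 9 plus-strand and 3 minus-strand ends, too few for an offset.

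**Figure D3:**
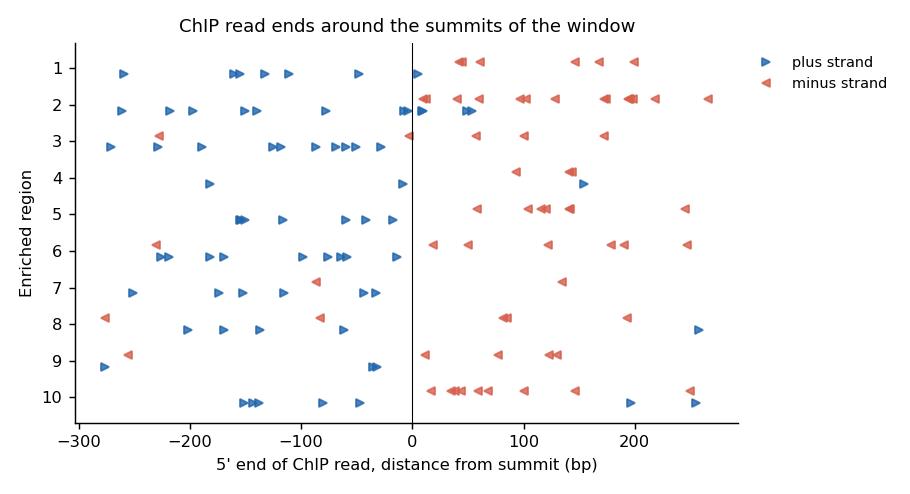
Each marker is the 5′ end of 1 ChIP read, by its distance in bp from the summit of its region, for regions 1 to 10 (rows). Plus-strand ends (blue, pointing right) lie mostly before the summit, with a median of -111 bp, and minus-strand ends (red, pointing left) mostly after it, with a median of 101 bp.

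The regions were separated by long stretches without any. The longest, between 62243651 and 63482200, measured 1.24 Mb between regions 9 and 10, and 5 of the 1470 gaps between neighbouring regions of chromosome 15 were longer. It held 661 ChIP and 1882 extract reads, a ratio of 0.694 (interval 0.635 to 0.759) with the libraries scaled by their totals. The stretch leading up to the group near 61.8 Mb, from 61245551 to 61804650 between regions 4 and 5, was 559 kb long and was exceeded by 32 gaps. The next, from 61921151 to 62243400 between regions 8 and 9, measured 322 kb. The median gap on the chromosome was 22.4 kb. The 3 regions near 61.8 Mb were therefore flanked by 559 kb without a region on one side and by 105 kb, up to region 8, on the other.

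The inner part was compared with the rest of the window. It held 436 ChIP and 915 extract reads in 400 kb, and the rest held 1393 and 3553 reads in 2.3 Mb. The ChIP-to-extract ratio was 0.942 (interval 0.839 to 1.06) in the inner part and 0.775 (0.728 to 0.825) in the rest, and the first was 1.22 times the second (1.06 to 1.39). This difference is larger than counting error. Outside the regions and their 1-kb flanks, the inner part was 1.13 times the rest (0.986 to 1.3), an interval that includes 1.

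Regions were also denser in the inner part, though within counting error. There were 10 regions per Mb (interval 2.72 to 25.6) in it and 2.61 per Mb (0.957 to 5.68) in the rest, a ratio of 3.83 (0.796 to 16.2). Regions held 10.1% of the ChIP reads of the inner part (7.43 to 13.3) and 5.74% of those of the rest (4.58 to 7.1). Before the inner part the share was 10.3% (7.99 to 13.1), and after it 2.46% (1.51 to 3.77). Against the inner part, the share was thus lower in the stretch after it and not in the one before it. All of these shares were below the 29.1% (28.8 to 29.4) of the rest of chromosome 15. The bounds of the stretch after the inner part come from the member rule, and its comparison was made after the values were seen.

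Both libraries were denser over the inner part. Extract reads were at 2.29 per kb there and at 1.54 per kb in the rest, a ratio of 1.48 (interval 1.38 to 1.59). ChIP reads were at 1.09 and 0.606 per kb, a ratio of 1.8 (1.61 to 2.01). Of the 1-kb bins, 92.5% had a read in the inner part and 80.2% in the rest. Per bin with a read, the ratios were 1.28 (1.19 to 1.38) for the extract and 1.56 (1.4 to 1.74) for the ChIP. Base composition and mappability were not measured, and their part in this difference was not tested. The 2 extract lanes gave 192 and 199 RPM in the inner part.

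In steps of 100 kb, extract reads outside regions numbered 197, 203, 242 and 247 in the 4 steps of the inner part, against a median of 148 and a range of 122 to 217 in the 23 other steps. The 2 sets overlapped, since 1 of the other steps held 217. The corresponding ChIP reads numbered 70, 101, 103 and 97, against a median of 56 and a range of 34 to 78, so that 3 of the 4 inner steps lay above every other step. The step from 61800001, which holds regions 5, 6 and 7, had the highest ratio outside regions, 0.984 (interval 0.767 to 1.25). The lowest, 0.487 (0.324 to 0.713), was in the step from 63200001, within the gap of 1.24 Mb. On the rest of chromosome 15 the median step held 178 extract reads, and 42.3% of 978 steps held at least as many as the lowest inner step with its regions included (197) and 22.2% at least as many as the highest (250). The inner steps thus lay above the median of the chromosome. The median of 148 in the rest of the window lay below it. That 148 leaves out regions and their flanks, whereas the chromosome's 178 includes them.

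**Figure D4:**
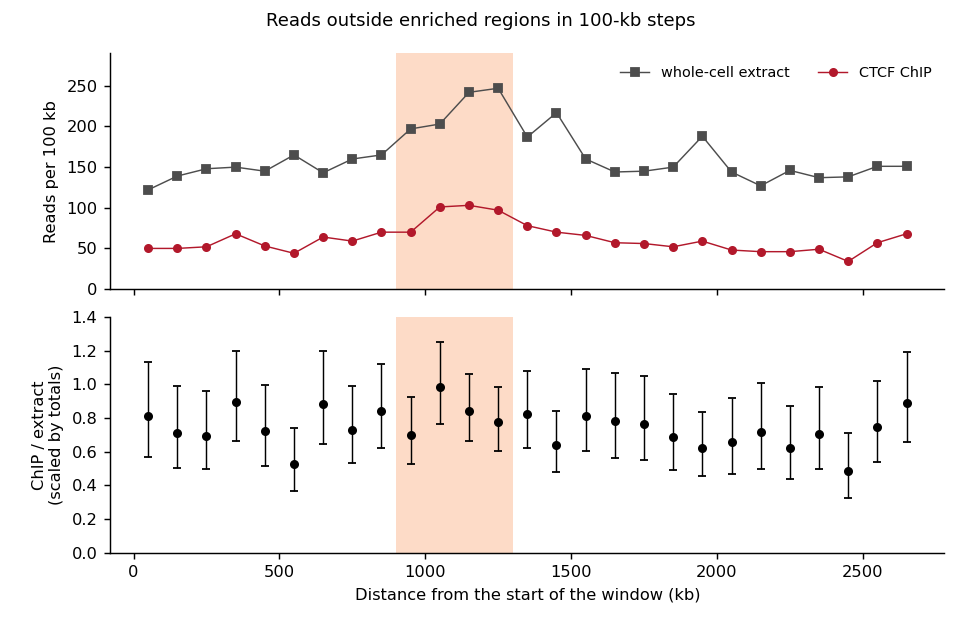
Top, reads outside enriched regions and their 1-kb flanks in 100-kb steps, for the whole-cell extract (squares) and the CTCF ChIP (points); bottom, their ratio scaled by library totals, with 95% intervals, both against the distance in kb from the start of the window. Shading marks the inner part, where the extract rises to 247 reads and the ChIP to 103 per step, while the ratio stays between 0.702 and 0.984.

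The window was then set against 35 other windows of 2.7 Mb laid outwards along chromosome 15. It held 10 regions (interval 4.8 to 18.4), against a median of 29 and a range of 2 to 130. Of the other windows, 7 held fewer and 28 more. Regions per Mb were at 3.7 in the window and 14.5 on the rest of the chromosome, a ratio of 0.256 (0.122 to 0.471), and per extract read the ratio was 0.278 (0.133 to 0.513). The rest of the window was at 0.18 times the density of the rest of the chromosome (0.0659 to 0.393). The inner part was at 0.69 times that density (0.188 to 1.77). As given above, the inner part and the rest of the window differed in regions per Mb by no more than counting error.

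In share of reads the window was low as well. Its regions held 6.78% of its ChIP reads (interval 5.67 to 8.03), against a median of 20.4% in the other windows, and 4 of the 35 had a lower share. Its ChIP-to-extract ratio was 0.809 (0.766 to 0.855), against a median of 0.942 over the other windows. With the extract scaled by background bins in place of library totals, the ratio of the window was 1.66, above 1, so whether it lies above or below 1 depends on the scaling. This scaling multiplies each ChIP-to-extract ratio by 1 constant, those of the regions included. Region 6 went from 10.5-fold to 21.7-fold, both on the floor, and region 8 from 15.8-fold to 32.5-fold. The window was at 0.859 times the median of the other windows, a value that no scaling can alter.

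Outside the regions the window was not low. The ratio there was 0.747 (interval 0.706 to 0.791), with a median of 0.717 over the other windows, of which 29 lay lower. Extract reads numbered 4468, against a median of 4788, and 12 of the 35 windows held fewer.

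**Figure D5:**
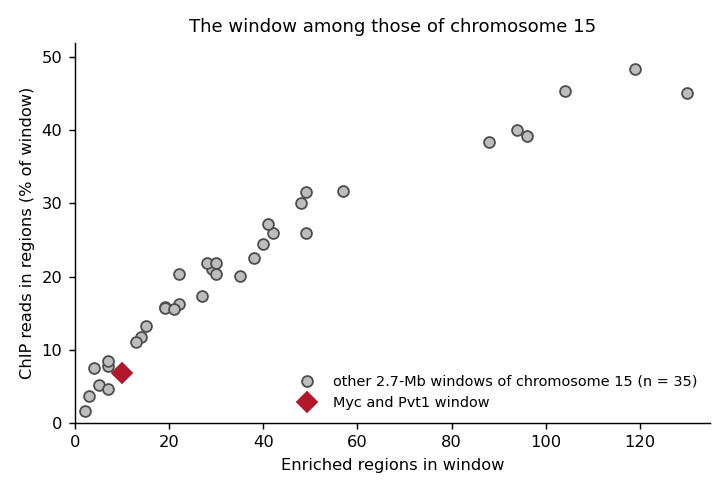
Each point is a 2.7-Mb window of chromosome 15, by its number of enriched regions and the percentage of its ChIP reads that fell in them. The Myc and Pvt1 window (diamond) holds 10 regions and 6.78% of its reads in them, near the low end of the 35 other windows, whose medians are 29 regions and 20.4%.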

How the data were processed

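The files deposited by the authors list the chromosome, start, end and strand of each aligned read. Per the submitters' processing notes the build was mm8; the aligner is not given in the sources used here, nor are its settings. Per the labels' protocols, libraries were amplified by 15 cycles of PCR and sized at about 250 bp with adapters. Every read was 36 bases long. Since no position and strand recurred, counts at strong sites have a ceiling. Starts were taken as 0-based and are printed from 1, so positions may be off by 1 bp.

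Read counts were computed from the deposited positions. Library totals on the assembled chromosomes gave a scale of 0.506, and the genome average was 0.18 ChIP reads per 200-bp window, stepped every 50 bp. The expected count for regions used extract reads in 1, 5 and 10 kb. Windows of chromosome 15 needed a read in at least 80% of their 10-kb steps, which left out 1. Both callers were run on simulated sites over a background drawn from the extract, with read ends placed around the same shift of 102 bp. Such data do not measure the error rate on the real ChIP background. Software was Python 3.11.15, numpy 2.4.6, scipy 1.17.1, pandas 2.3.3 and matplotlib 3.10.9. The members and lists were chosen with earlier results of these data known. Named regions were to be all those of the inner part, up to 10 of the rest by ChIP reads, and the longest gap. Alternatives covered shift, scaling, thresholds, bin width, joining, extract lanes and bounds. Splitting reads by odd and even read numbers was added after seeing the data. No genome of mm8 was used here, so no sequence of a region is printed.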

Additional observations from a re-analysis of the deposited data

How the results depend on the processing

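Outside the exchange of libraries, the strongest 6 regions (1, 2, 3, 5, 6 and 10) were called in all 10 alternatives that redo the calling of regions on all ChIP reads. Region 4 was lost with no shift, with a shift of 75 bp and at an adjusted p under 1e-06; region 8 with no shift and at 1e-06; regions 7 and 9 at 1e-06. The window held 10 regions, 23 at an adjusted p under 0.05 and 6 at 1e-06, when 2 of the 4 inner regions remained. Over the assembled chromosomes 4.49% and 2% of sliding windows passed these limits. Enriched bins fell from 7 to 4, and from 2 to 1 in the inner part, at 10 times the expected count (0.812% of all bins). In the inner part 4 bins were called with the extract scaled by background bins (1.72% of all bins) and 4 with the genome average alone (1.78%). The same scaling took the ChIP-to-extract ratio of the window from 0.809 to 1.66, by construction, since the factor is 0.246 in place of 0.506 for every ratio. With no shift the strand offset was 159 bp over the 8 regions then called, against 212 bp over the 10. With the libraries exchanged, 0 regions and 0 bins were called in the window and 0 in its inner part, as over nearly all of the genome (0.000419% of sliding windows and 0.00109% of bins). Odd-numbered ChIP reads, 50% of the library by construction, called 6 regions with 2 in the inner part and 1 inner bin (0.989% of all bins), with an offset of 162 bp; even-numbered reads called 3 bins (0.986% of all bins), 1 of them inner, and 2 inner regions. The inner part stayed at 1.13 to 1.33 times the rest of the window in 11 alternatives, and the region count of the window at 0.25 to 0.511 times the median of the other windows in 13. The regions not found with 50% of the ChIP reads were 4, 7, 8 and 9 in the odd and 7 and 8 in the even reads, which hold 5 to 8 reads in the whole library. No paired analysis was possible because there is 1 library a group, which also leaves no replicate to omit.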

Other observations

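Below the threshold the window held further places with a few more ChIP reads than expected. At an adjusted p under 0.05, the regions called over the assembled chromosomes rose from 34781 to 51300. In the window this limit added 13 regions to the 10, 2 in the inner part and 11 in the rest. Each held 3 to 5 ChIP reads and at most 3 extract reads. Those in the inner part ran from 61816701 to 61817000, with 5 ChIP and 3 extract reads (adjusted p = 0.002, exact Poisson test), and from 61925051 to 61925350, with 3 and 0 reads (adjusted p = 0.0446, exact Poisson test). The first of these lay within the broader rise beyond region 7 and the second beyond region 8. The gap of 1.24 Mb between regions 9 and 10 held 4 such places, with 3 or 4 ChIP reads each. The smallest adjusted p of the 13 was at 61448351 to 61448650, in the gap of 559 kb between regions 4 and 5. This place held 4 ChIP reads and 1 extract read (adjusted p = 0.00126, exact Poisson test). Beyond the window, the nearest regions lay 210 kb before its start, with 26 ChIP and 3 extract reads, and 4.3 kb after its end, with 9 and 0 reads.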
